A study of Mus musculus with 2 samples.

Results

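The nuclear genes of the mitochondrial respiratory chain and the ATP synthase were measured in total RNA of adult mouse liver. Members were the protein-coding nuclear genes whose symbol begins as Ndufa, Ndufb, Ndufc, Ndufs or Ndufv with a number, Sdha to Sdhd, Uqcr, Cox4 to Cox8, or Atp5. This rule took 84 of the 43346 endogenous genes found in both libraries, of which 21474 were protein-coding. By complex, 35 members belong to complex I, 4 to complex II, 8 to complex III, 20 to complex IV and 17 to complex V. The study holds a single group, liver of C57BL/6J mice aged 8 weeks, with no treatment or genotype contrast, as 2 libraries of RNA longer than 200 nucleotides (replicates 1 and 2) with spike-in RNAs added. The labels number the libraries as biological replicates and give each its own biosample but the same donor identifier, record no sex and an unknown health state, and do not say whether separate animals were used. The spread between the libraries, given as an SD (n = 2), may therefore be technical. Of 7 hepatocyte marker genes, 7 were detected in both libraries.

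The respiratory chain passes electrons from NADH (complex I) and succinate (complex II) through ubiquinone to complex III, then through cytochrome c to complex IV, which reduces oxygen. Complexes I, III and IV pump protons across the inner mitochondrial membrane, and complex V, the ATP synthase, uses the returning protons to make ATP. Complexes I, III, IV and V are built from subunits of both genomes, the catalytic or membrane core of several of them being encoded in mitochondrial DNA, whereas all complex II subunits are nuclear. Hepatocytes are rich in mitochondria and use this ATP for gluconeogenesis, urea synthesis and secretion. Several complex IV subunits exist as a broad or liver isoform and as an isoform known from muscle, heart, lung or testis.

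Levels are endogenous TPM, a length-scaled share of transcripts. They were rescaled over features with mouse Ensembl gene identifiers, which left out the spike-ins and any other feature. The libraries held 83816492 and 71068181 expected counts on endogenous genes. TPM of the bulk of genes was higher in replicate 2 (median log2 ratio of deposited TPM 0.51), and protein-coding genes took 12.2% of endogenous TPM in replicate 1 and 16.4% in replicate 2. Levels of genes are therefore compared within a library, and the SD of a TPM level includes this offset. In bulk liver, a difference in the number of cells of a type and in RNA per cell cannot be told apart. Pancreatic acinar markers (6 genes) summed to 28734 counts in replicate 1 and 6521 in replicate 2, adrenal cortex markers (6 genes) to 95 and 5959, and skeletal muscle markers (12 genes) to 3914 and 19. The part of these other cells in the members' values was not tested.

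At 1 TPM or more in both libraries, a level called detected below, 75 of the 84 members were present. Among all protein-coding genes the same share was 31.0%. Detected members had a median of 32.2 TPM in replicate 1 and 44.2 in replicate 2, against 3.12 and 4.45 TPM over all protein-coding genes that passed the same threshold. By mean level, 74 of the 75 stood in the upper 10% of the 21474 protein-coding genes. The exception was Ndufa11. Together the members held 2.68% of protein-coding TPM in replicate 1 and 2.71% in replicate 2 (mean 2.69% ± 0.0189), a share that differed little between the libraries although their summed TPM was 3268 and 4427. The 10 highest members carried 35.8% and 36.4% of that sum. Complex V made up 30.6% ± 0.283 of the members' summed TPM, complex I 27.1% ± 0.952, complex IV 22.9% ± 0.537, complex III 14.9% ± 0.122 and complex II 4.50% ± 0.00938.

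Of the 9 members under the detection level, 8 are complex IV isoforms known from other tissues. The ninth was Atp5s, coupling factor B, which is associated with the ATP synthase and had 0.351 and 0.583 TPM. Medians over the subunits differed by complex, whereas levels of single subunits overlapped. By mean level, detected subunits ran from 2.34 to 141 TPM in complex I and from 24.3 to 220 TPM in complex V. In both libraries the median over complex I was the lowest, at 21.1 TPM in replicate 1 and 28.0 in replicate 2. The median over complex II was 33.8 and 47.5 TPM. Complex III had medians of 50.9 and 58.8 TPM, and complex V of 52.2 and 66.8. Complex IV stood at 30.0 and 52.5 TPM over all 20 members, and at 47.9 and 71.3 TPM over the 12 members left without the 8 isoforms of other tissues. Complex V stood above complex III in both libraries, and complex IV without those isoforms was below both in replicate 1 and above both in replicate 2. Complex I stayed lowest within each library, with and without those isoforms. These medians describe subunits, which are not replicates of a complex.

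**Figure D1:**
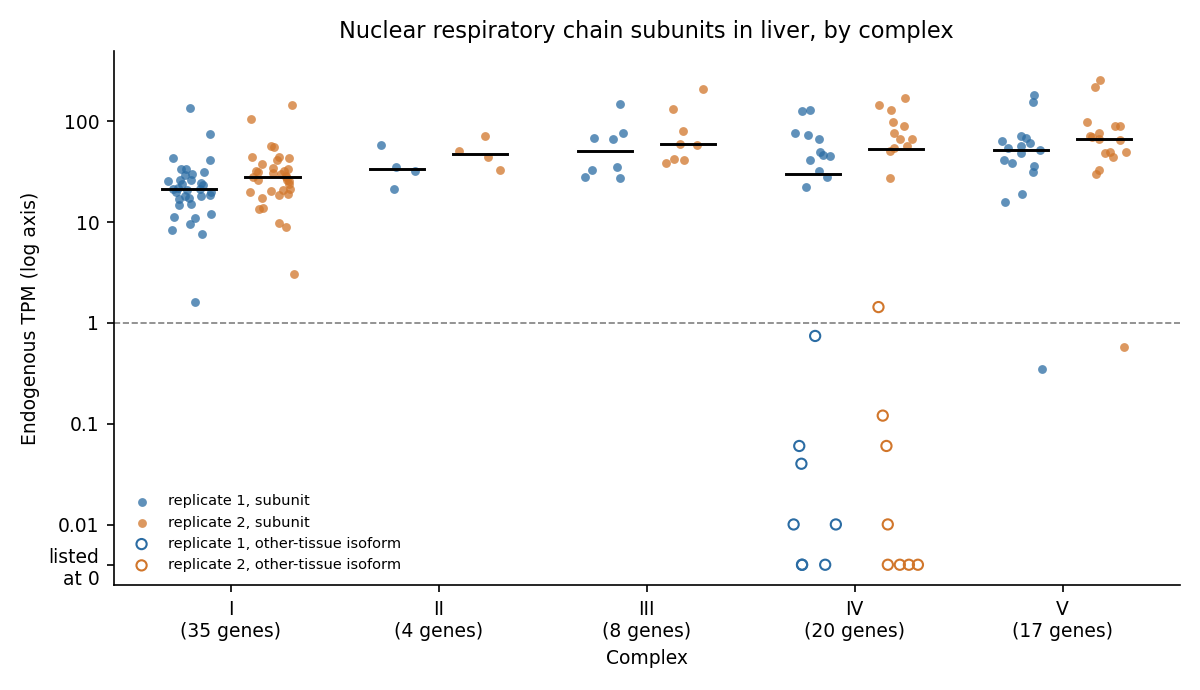
Endogenous TPM (log axis) of the 84 members by complex. Filled points are subunits, open circles are complex IV isoforms known from other tissues, colours are the libraries, and black bars are medians over all members of a complex. Complex I has the lowest median (21.1 and 28.0 TPM), and the open circles lie under the dashed line at 1 TPM except Cox7a1 in replicate 2 (1.44 TPM).

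The core subunits of complex I, which carry the flavin and the iron-sulfur clusters, lay close together. Ndufs8, which holds clusters on the path to ubiquinone, was lowest at 14.7 and 18.7 TPM. Ndufs1, the largest subunit of the complex, had 19.9 and 21.2 TPM, and Ndufv1, which binds NADH and the flavin, 19.9 and 28.0. Over the 7 core genes the coefficient of variation of the levels was 22.1% in replicate 1 and 26.5% in replicate 2. Over the 28 accessory genes it was 93.8% and 83.8%, so levels were more uneven among accessory than among core subunits, with no test of that difference.

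The highest accessory subunits of complex I were Ndufa6 (136 and 146 TPM), Ndufb9 (74.7 and 105) and Ndufb8 (43.01 and 55.3). Ndufa6 and Ndufb9 are small LYR-family proteins. The lowest were Ndufa11 (1.62 and 3.06 TPM), Ndufs4 (7.57 and 8.95) and Ndufa5 (11.02 and 9.80). Ndufa11, a membrane subunit that links complex I to complex III in supercomplexes (chr17:56717767-56722141, mm10), had 1251 and 1514 counts, which is not few. The deposited gene models give its main transcript a length of 2661 nucleotides, whereas the newer GENCODE M21 annotation gives 545. If all its counts lie within the shorter transcript, its level would be 11.9 TPM in replicate 1 and 21.9 in replicate 2. This was not checked, and such a level would be inside the range of the other complex I subunits. Its leading transcript was the only 1 among the 84 members that differed by more than 1.5 times in length between the annotations, and 58 had the same length in both. Ndufa3, another accessory subunit, whose transcript had 349 and 515 nucleotides, would move from 18.2 and 31.2 TPM to 8.27 and 14.7. It was named after its values were seen.

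Ndufb4, a membrane-arm subunit (chr16:37647170-37654453, mm10), had 2004 counts in replicate 1 and 2087 in replicate 2, at 8.39 and 13.5 TPM. A processed pseudogene, Ndufb4c (chr15:73809507-73809896, mm10), was given 2696 and 2113 counts. Its 390 bases are 100% identical to a stretch of Ndufb4 over their whole length, so reads from that stretch cannot be assigned by sequence, and the division between the 2 genes is uncertain. Counted together, the pair had 4700 and 4200 counts, a sum taken after the values were seen.

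In complex II, the only complex of the chain without a mitochondrially encoded subunit, Sdhb was highest and Sdhc lowest in both libraries. Sdhb, the iron-sulfur subunit, had 58.1 and 71.9 TPM. Sdha, which holds the flavin and oxidises succinate, had 32.4 and 44.1 TPM. The membrane anchors Sdhd and Sdhc had 35.2 and 50.9, and 21.2 and 32.6 TPM. Sdhb exceeded Sdhc 2.73-fold in replicate 1 and 2.20-fold in replicate 2, a ratio of levels of subunits that occur in equal number in the complex.

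Complex III was uneven, with small subunits at the top. Uqcr11 had 149 and 211 TPM, Uqcr10 76.6 and 133, and Uqcrh 66.5 and 79.4. Uqcrfs1, the Rieske iron-sulfur protein that takes electrons from ubiquinol, had only 27.5 and 40.9 TPM, and the core proteins Uqcrc1 and Uqcrc2 had 35.3 and 57.7, and 32.9 and 42.3 TPM. Uqcrq, a small subunit near the ubiquinone site, stood at 28.02 and 38.5 TPM. The 3 lowest were thus Uqcrq, Uqcrfs1 and Uqcrc2, and Uqcr11 was 5.41 and 5.15 times as high as Uqcrfs1. Cyc1, cytochrome c1, lies outside the symbol rule and had 23.2 and 40.8 TPM.

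Among complex IV subunits made in liver, Ndufa4, once assigned to complex I, was highest by mean at 127 and 170 TPM, followed by Cox7c (128 and 145) and Cox4i1 (77.1 and 129). Cox4i1 is the largest nuclear subunit and is bound early in assembly. The lowest detected subunits were Cox7a2l (22.1 and 27.4 TPM), known as a supercomplex factor, Cox8a (27.7 and 54.5) and Cox5a (32.2 and 50.5). Whether the product of Cox7a2l joins complexes in mice of this strain was not measured.

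Complex V held the highest members. Atp5b, the catalytic beta subunit of the F1 head (chr10:128083273-128090391, mm10), had 180 and 259 TPM and ranked 79th of the protein-coding genes by mean level. Atp5a1, the alpha subunit, had 155 and 218 TPM, and Atp5c1, the gamma rotor shaft, 61.1 and 89.2. The F1 head holds several copies of alpha and beta around 1 gamma subunit, and the ratio of levels was 2.95 and 2.91 for Atp5b over Atp5c1 and 2.54 and 2.44 for Atp5a1 over Atp5c1. These ratios differed little between the libraries. Atp5d, the delta subunit, was lower, at 15.7 and 32.8 TPM, and Atp5e, the epsilon subunit, had 56.7 and 70.5. Atp5b was 11.4 and 7.90 times as high as Atp5d. The 3 genes of the membrane ring, described below, summed to 1.84 and 2.30 times Atp5c1. Whether levels follow the number of copies in the complex was not tested. The 8 stalk and membrane genes lay within 31.4 to 70.7 TPM in replicate 1 and 44.6 to 89.5 in replicate 2, with Atp5l highest and Atp5o lowest by mean.

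The membrane ring of complex V is made of subunit c, which 3 genes encode with different import signals and the same mature protein. The last 78 residues encoded by Atp5g1, Atp5g2 and Atp5g3 were identical. Their codons are shown because they let reads of the 3 genes be told apart from each other. Each run of 234 bases codes for those residues, 5′ to 3′, with the 63 positions at which the genes differ in capitals. The genes lie at chr11:96068852-96075670, chr15:102662864-102672352 and chr2:73908447-73911326 (mm10, minus strand).
Atp5g1: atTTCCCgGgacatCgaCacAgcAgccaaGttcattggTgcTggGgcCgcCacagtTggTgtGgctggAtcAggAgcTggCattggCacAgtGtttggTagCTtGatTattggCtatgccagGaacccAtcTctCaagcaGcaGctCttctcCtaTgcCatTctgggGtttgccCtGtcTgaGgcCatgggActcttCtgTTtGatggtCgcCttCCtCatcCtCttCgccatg
Atp5g2: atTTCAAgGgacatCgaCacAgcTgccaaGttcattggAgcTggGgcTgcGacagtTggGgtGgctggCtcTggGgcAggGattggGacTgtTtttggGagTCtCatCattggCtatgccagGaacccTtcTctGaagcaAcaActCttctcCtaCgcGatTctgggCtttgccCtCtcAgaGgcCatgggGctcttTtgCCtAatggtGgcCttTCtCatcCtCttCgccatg
Atp5g3: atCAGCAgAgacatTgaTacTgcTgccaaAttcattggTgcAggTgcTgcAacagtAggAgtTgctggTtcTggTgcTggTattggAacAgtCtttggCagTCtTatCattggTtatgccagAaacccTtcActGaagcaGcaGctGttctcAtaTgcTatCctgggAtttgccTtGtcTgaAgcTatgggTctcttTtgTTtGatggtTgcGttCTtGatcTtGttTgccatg
Of the 63 differing positions, 55 are at the third position of a codon. Atp5g1 and Atp5g2 share 84.6% of these bases, with a longest identical run of 20, Atp5g1 and Atp5g3 78.6%, and Atp5g2 and Atp5g3 77.4%.

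The 3 genes contributed unequally. Atp5g1 had 52.2 and 98.7 TPM, or 46.4% and 48.1% of the summed level of the c genes. Atp5g3 had 41.5 and 76.6 TPM (36.9% and 37.3%), and Atp5g2 18.9 and 29.97 TPM (16.8% and 14.6%). The order was the same in both libraries. Among processed pseudogenes, Gm10231 is 100% identical to Atp5g2 over 441 bases and Gm10039 99.8% to Atp5g1 over 411. Gm10231 had 0 counts in both libraries, and Gm10039 had 96 and 54. Reads from an identical stretch cannot be assigned by sequence, so the 0 of Gm10231 does not show that this copy is silent. The posterior SD of the counts, a deposited estimate of the uncertainty from reads that fit several genes, was 1.27% and 1.45% of the count for Atp5g2, the highest value among members with more than 10 counts, and 0.105% and 0.0788% for Atp5g1.

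The isoforms of complex IV known from other tissues were at or near 0, and 7 of the 8 had 9 counts or fewer in each library. In the COX4I set, Cox4i1 had 12952 and 14084 counts and Cox4i2, the lung and hypoxia-linked isoform, 0 and 1. Cox6a1, the liver form of subunit VIa, had 5224 and 5651 counts, and Cox6a2, the heart and skeletal muscle form, 5 and 0. The count of 0 allows a share of up to 0.0531% of the set in replicate 2, and 5 counts in replicate 1 were 0.0956% (exact binomial 95% interval 0.0311% to 0.223%). Intervals and limits here cover counting error only.

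Cox6b2, a testis form, had 1 and 0 counts beside 6201 and 6025 for Cox6b1. Cox7b2, another testis form, had 0 and 0 beside 11248 and 8800 for Cox7b. Cox8b, the muscle and brown fat form, had 3 and 4 counts and the testis form Cox8c had none, beside 2915 and 3773 for Cox8a. Ndufa4l2, known to be induced by hypoxia, had 3 and 9 counts beside 11236 and 9963 for Ndufa4. In each of these sets nearly all counts fell on the broad or liver isoform.

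Cox7a1, the heart and muscle form of subunit VIIa (chr7:30184144-30186078, mm10), had 36 counts in replicate 1 and 47 in replicate 2. It stood at 0.743 and 1.44 TPM, or 1.78% and 2.11% of the set by TPM (0.511% and 0.631% by counts), with Cox7a2 (chr9:79755361-79759878) at 41.0 and 66.5 TPM. The skeletal muscle markers, which summed to 3914 and 19 counts, lay nearly all in replicate 1, whereas Cox7a1 had counts in both libraries. Heart muscle markers (8 genes) summed to 85 and 88 counts and brown fat markers (4 genes) to 564 and 89, of which Elovl3 alone had 499 and 34 and Ucp1 39 and 36, and no gene of these 3 lists was detected. Cox6a2 had its 5 counts in the library with the muscle marker counts. The part of muscle cells in either gene's counts was not tested.

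**Figure D2:**
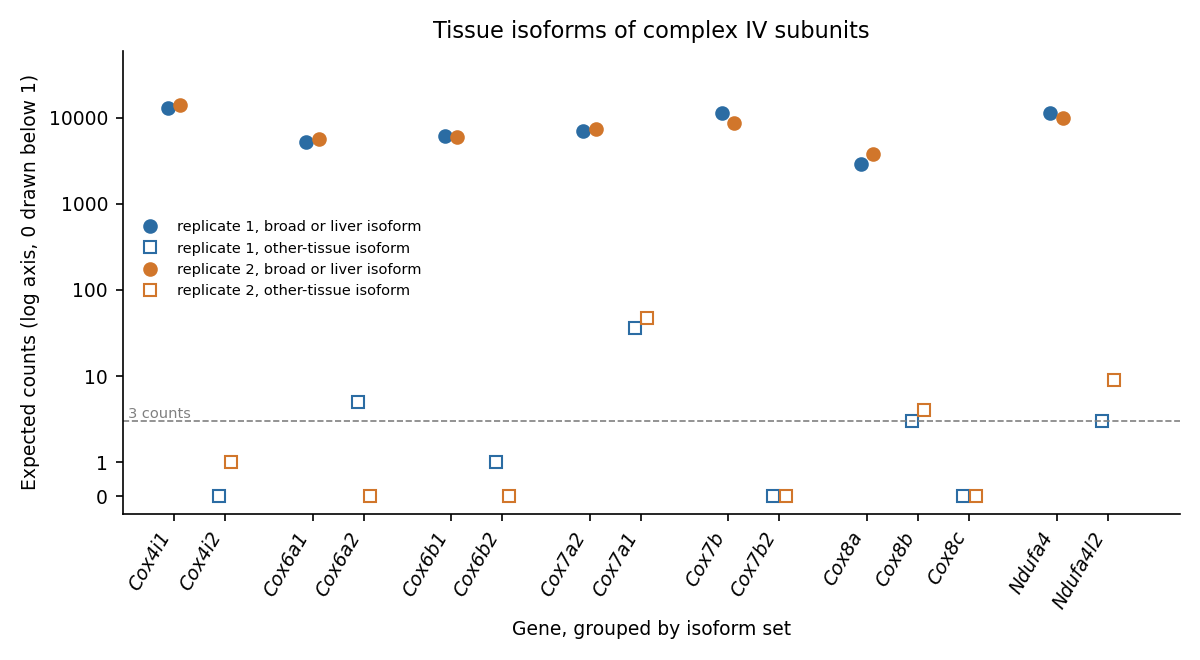
Expected counts (log axis, with 0 drawn below 1) of the broad or liver isoforms (filled circles) and the isoforms known from other tissues (open squares) in both libraries, grouped by isoform set. The filled circles lie between 2915 and 14084 counts, Cox7a1 at 36 and 47, and the other open squares at 9 counts or fewer, around the dashed line at 3 counts.

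The isoforms of a set differ enough in sequence for reads to be assigned. Coding sequences were 66.6% identical between Cox6a1 and Cox6a2, 66.9% between Cox7a2 and Cox7a1, 68.1% between Cox8a and Cox8b, and 70.3% between Cox4i1 and Cox4i2. At the protein level, Cox6a1 and Cox6a2 were 64.5% identical over 93 aligned residues and Cox8a and Cox8b 42.6% over 68.

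Promoter windows of RefSeq genes (build GRCm38.p6, 250 bases before to 50 after the start) matched 68 of the 84 members, and 4 short motifs were searched in them on both strands. They were GCGCANGCG for NRF1, CCGGAAG for the ETS factors (which include GABP), AANATGGCG for YY1 and TCAAGGTCA for the ERR receptors, factors known to act on respiratory genes. An NRF1 match was present for 20 of 68 members (29.4%), against 6.25% of all 32851 windows and 16.6% of 5916 measured protein-coding genes. An ETS match was present for 16 members (23.5%), near the 22.5% of measured protein-coding genes and above the 8.86% of all windows. YY1 matches were found for 10 members (14.7%, against 2.38% and 7.01%) and ERR matches for 2, Atp5g3 and Sdhd (2.94%, against 0.423% and 0.254%). A match describes letters in the window only. The comparison with measured genes was added after the data were seen. In the 15 complex V promoters, 11 held at least 1 of the motifs, in complex I 18 of 31 and in complex IV 3 of 14, against 38 of all 68 members, 39.1% of measured protein-coding genes and 15.8% of all windows. The 14 of complex IV include Cox6b2, Cox7a1, Cox7b2 and Cox8b, isoforms of other tissues that were not detected.

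A stretch of 5 promoters, picked as examples, is shown with the motifs. They are Cox8a with Cox8b as a liver and a muscle isoform, then Cox6a1, Uqcr11 and Atp5b as abundant members. Each holds 170 bases before and 30 after the RefSeq start, 5′ to 3′ on the strand of the gene, with motif matches in capitals. The positions (GRCm38.p6) are chr19:7217587-7217786, minus strand; chr7:140900417-140900616, minus strand; chr5:115348929-115349128, minus strand; chr10:80406792-80406991, minus strand; and chr10:128083137-128083336, plus strand.
Cox8a: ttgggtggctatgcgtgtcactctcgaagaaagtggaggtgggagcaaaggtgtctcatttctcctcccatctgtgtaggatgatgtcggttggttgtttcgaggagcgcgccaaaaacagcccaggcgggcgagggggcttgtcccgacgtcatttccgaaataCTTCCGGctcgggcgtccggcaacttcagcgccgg
Cox8b: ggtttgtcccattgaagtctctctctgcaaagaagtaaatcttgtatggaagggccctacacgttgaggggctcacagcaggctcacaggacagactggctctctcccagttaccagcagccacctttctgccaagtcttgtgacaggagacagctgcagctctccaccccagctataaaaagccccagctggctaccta
Cox6a1: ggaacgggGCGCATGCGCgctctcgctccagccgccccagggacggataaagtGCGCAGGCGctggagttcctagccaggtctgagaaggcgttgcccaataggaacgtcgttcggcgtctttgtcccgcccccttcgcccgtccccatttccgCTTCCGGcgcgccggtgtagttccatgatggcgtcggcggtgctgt
Uqcr11: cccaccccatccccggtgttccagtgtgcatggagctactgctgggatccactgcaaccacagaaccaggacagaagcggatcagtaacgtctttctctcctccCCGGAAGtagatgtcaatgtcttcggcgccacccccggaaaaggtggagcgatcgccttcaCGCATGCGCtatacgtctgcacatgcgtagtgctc
Atp5b: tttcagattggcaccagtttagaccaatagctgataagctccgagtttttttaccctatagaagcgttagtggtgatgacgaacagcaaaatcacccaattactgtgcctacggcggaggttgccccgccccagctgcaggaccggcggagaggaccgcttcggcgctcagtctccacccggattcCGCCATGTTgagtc
The capitals mark an ETS match in Cox8a, NRF1 matches and an ETS match in Cox6a1 (the first pair of NRF1 matches overlaps on opposite strands), an ETS and an NRF1 match in Uqcr11, and a YY1 match in Atp5b. No searched motif lay in the Cox8b window. The same held for the windows of Cox7a1 and Cox7a2. It also held for those of Ndufa4, Cox7c and Uqcr10, each higher by mean level than Cox6a1. A link between motifs and levels was not tested.

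The members were also short genes. Over the 76 measured members (a mean of at least 1 TPM and 10 counts, which adds Cox7a1), the median gene length was 725 nucleotides, against 2286 for 7382 measured protein-coding genes, and 72.4% were under 1000 nucleotides, against 10.9%. Leading transcripts had a median of 4 exons, against 9. A protein-coding neighbour that starts within 1000 bases on the opposite strand was annotated for 18 of the 76 (23.7%, against 11.2%). The members lay on 19 chromosomes, with 3 on X (Ndufa1, Ndufb11 and Cox7b). TPM of short genes depends on the fragment length, about 211 nucleotides in replicate 1 and 201 in replicate 2, which is taken off the gene length.

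The libraries were then compared for each of the 76 measured members as the log2 ratio of replicate 2 over replicate 1 of TMM-scaled CPM (library-scaled counts) plus 0.5. This compares single libraries and has no replicate check, so no p-value is given. No member was more than 2-fold apart, against 2.36% of all 7702 measured genes (0.792% higher in replicate 2 and 1.57% higher in replicate 1). At 1.5-fold, a threshold added after the values were seen, 2 members passed, both higher in replicate 1, against 8.45% of all genes in either direction (4.93% higher in replicate 1 and 3.52% higher in replicate 2). The SD of the ratios was 0.25 over the members and 0.46 over all genes; among genes of 10 TPM or more it was 0.24 over 73 members and 0.60 over 1686 genes.

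Those passing 1.5-fold were Ndufb3, a membrane-arm subunit of complex I (chr1:58586384-58595964, mm10), and Uqcrb, the ubiquinone-binding protein of complex III (chr13:66900617-66905378, mm10). Counts of Ndufb3 were 3722 and 1976 (log2 ratio -0.81), and those of Uqcrb 6938 and 4027 (-0.69). Both were also lower in replicate 2 under spike-in and TPM scaling, but neither was then 1.5-fold apart. With the spike-in total 5 members passed 1.5-fold and with deposited TPM 21, all higher in replicate 2, against 15.3% and 42.5% of all genes in either direction. Next lowest were Ndufs6 (-0.49), Ndufa5 (-0.42) and Ndufa6 (-0.42, 14928 and 10513 counts), all complex I accessory subunits. At the other end were Atp5d (0.52, 3598 and 4870 counts), Cox8a (0.46, 2915 and 3773), Atp5g1 (0.40), Ndufa11 (0.35) and Atp5g3 (0.35).

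The median ratio over the members was -0.09, near the -0.04 over all measured genes, and 52 of the 76 lay below 0, against 55.4% of all genes. Under TMM scaling, 28 of the 35 complex I members lay below 0 (median -0.09). The 4 complex II members did too (median -0.14), with Sdhd only just below at -0.01. Complexes III and IV were split, 4 below and 4 above, and 6 below and 7 above. In complex V, 7 of the 8 stalk and membrane genes lay below 0, whereas the 3 c-ring genes lay above it. The direction of these ratios depends on the scaling, which shifts all genes together: with the spike-in total the members' median was 0.19 beside 0.24 for all genes, and in the ratio of deposited TPM 0.46 beside 0.51. Relative to all genes, the members' median differed by -0.05, -0.04 and -0.05 under TMM, spike-in and TPM scaling. Among genes of 10 TPM or more the sign of that difference turned, with medians of -0.09 over 73 members and -0.11 over all genes.

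**Figure D3:**
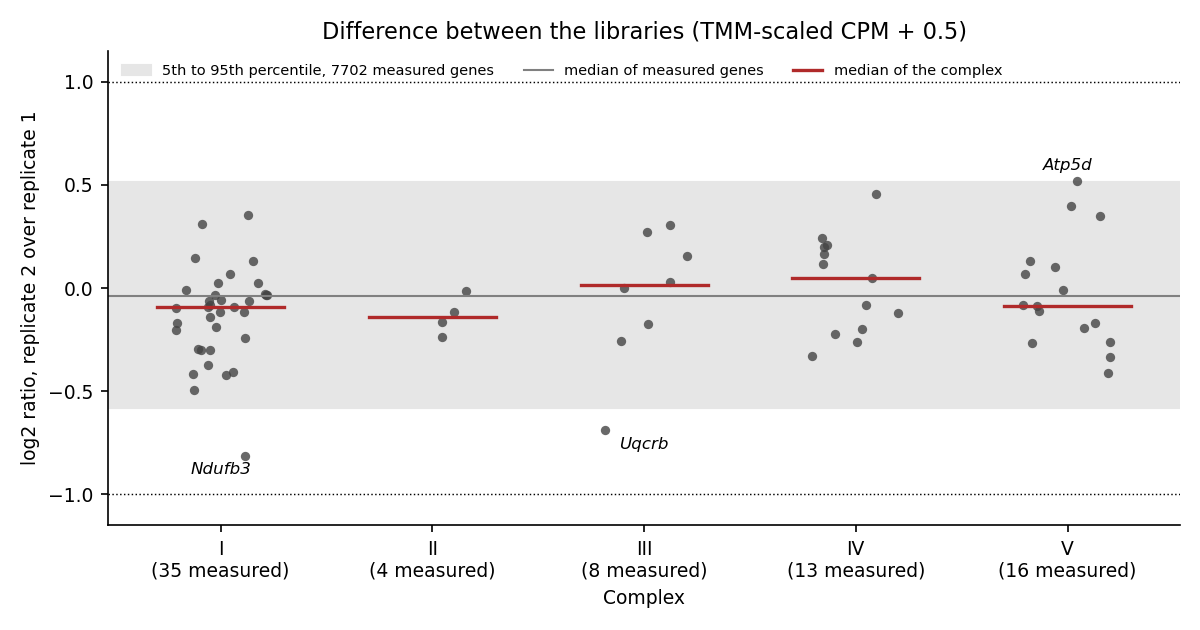
Log2 ratio of replicate 2 over replicate 1 (TMM-scaled CPM plus 0.5) of the 76 measured members by complex. Red bars are medians of the complexes, the grey band holds the middle 90% of the 7702 measured genes, and dotted lines mark 2-fold. Ndufb3 (-0.81) and Uqcrb (-0.69) lie below the band, and Atp5d (0.52) at its upper edge.

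The GC content of the leading transcript moved with these ratios. Atp5d, at the upper end, had 61.1% GC, Cox8a 58.5% and Atp5g1 56.4%, and at the lower end Ndufb3 had 45.0% and Uqcrb 42.2%. Others went the other way: against a median of 52.1% over the members, Ndufs6 (-0.49) had 55.5% and Ndufa6 (-0.42) 53.6%, and Atp5g3 (0.35) had 50.4%. Across the 76 members Pearson's r between ratio and GC was 0.52 and Spearman's rho 0.44. Across 7653 measured genes of any kind r was 0.30 and rho 0.41. In the 10% of all genes lowest in GC the median ratio was -0.23, and in the highest 10% 0.15. These are correlations across genes of the same pair of libraries, and genes are not independent replicates. The part of GC content in the members' ratios was not tested.

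**Figure D4:**
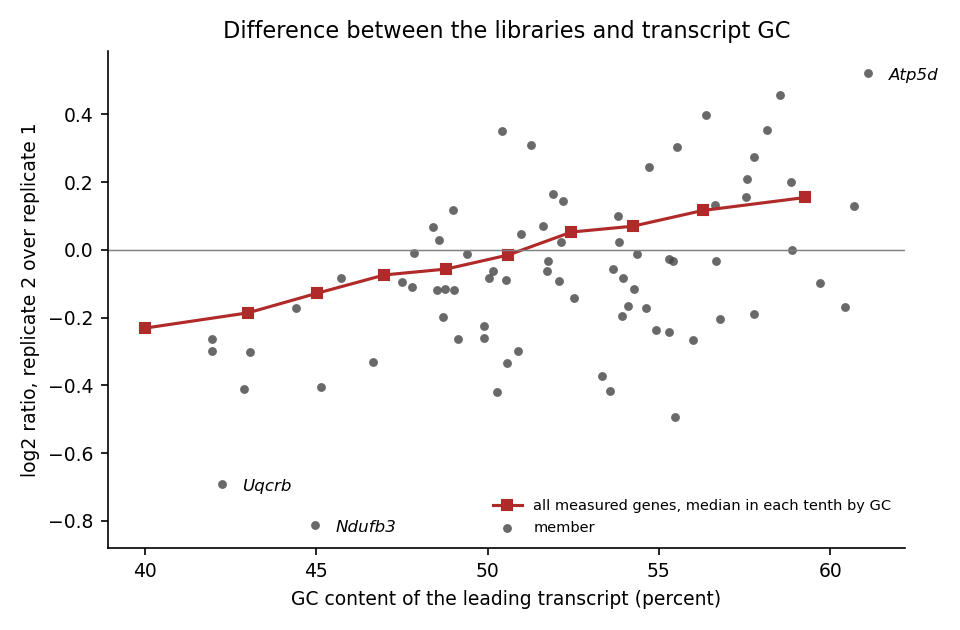
Log2 ratio of replicate 2 over replicate 1 against the GC content (percent) of the leading transcript for the 76 measured members (grey points). Red squares are medians of all measured genes in 10 bins of equal size by GC, running from -0.23 to 0.15. Uqcrb and Ndufb3 lie at the low GC end with the lowest ratios, and Atp5d at the high end with the highest.

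At the transcript level, the leading transcript (the one with the largest deposited share of its gene) was the same in both libraries for 72 of 75 detected members, and 72 had a protein-coding leading transcript in both. The median share of the leading transcript was 98.25% in replicate 1 and 97.7% in replicate 2, and 21 of the 75 have a single annotated transcript. For those 21 the leading transcript and its share are fixed by the annotation. Of the 54 with more than 1 transcript, 51 had the same leading transcript in both libraries. Their median share was 94.3% in replicate 1 and 93.5% in replicate 2. In Ndufb10, a membrane-arm subunit of complex I, a transcript annotated as retaining an intron led in both libraries, with 66.3% and 61.6%. In Ndufa5, a processed transcript without annotated coding sequence led in replicate 1 (48.65%) and the coding transcript in replicate 2 (57.3%). In Atp5f1, the stalk subunit b, a transcript annotated for nonsense-mediated decay led in replicate 1 with 41.05% of the gene and had 17.6% in replicate 2, with 9034 and 2624 counts. The coding transcript of Atp5f1 had 36.8% and 68.3%, with 10266 and 12862 counts. In Atp5c1 the lead passed between a pair of coding transcripts, Atp5c1-203 (55.8% and 49.1%) and Atp5c1-201 (43.3% and 50.2%). Atp5h, named after its values were seen, kept its leading transcript, whose share was 59.4% in replicate 1 and 89.75% in replicate 2. Shares of overlapping transcripts are estimates from shared reads.

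The median level of mitochondrially encoded subunits stood above that of the nuclear subunits of the same complex. Single genes overlapped in complex I, where Ndufa6 (136 and 146 TPM) exceeded mt-Nd2 (81.2 and 92.5) in both libraries. In complex I the median over the 7 mitochondrial genes was 167 TPM in replicate 1 and 184 in replicate 2, which was 7.93 and 6.57 times the median over the 35 nuclear genes. In complex III, mt-Cytb, cytochrome b, had 281 and 378 TPM, or 5.53 and 6.43 times the nuclear median. In complex IV, where mt-Co1, mt-Co2 and mt-Co3 form the catalytic core, the ratio was 52.7 and 48.1 without isoforms of other tissues. mt-Co1 alone had 2883 and 3778 TPM. In complex V the ratio was 46.3 and 25.8, but it rests on mt-Atp8, whose 4581 and 3028 TPM come from 12199 and 7494 counts on a very short gene. Without mt-Atp8, mt-Atp6 alone gave a mean ratio of 7.17 ± 0.528. As a ratio of summed TPM over all subunits, the mean was 1.12 for complex I, 0.576 for complex III and 7.84 for complex IV. For complex V it was 3.79, which again rests on mt-Atp8, as the mitochondrial sum was 4944 and 3545 TPM. mt-Atp6 alone, at a mean of 440 TPM, lay below the nuclear sum of 992 and 1361 TPM. The 13 mitochondrial subunits had log2 ratios between the libraries from -0.75 for mt-Nd6 to -0.02 for mt-Atp6 under TMM scaling, where the median of all genes was -0.04. Under spike-in scaling, which moved the median of all genes to 0.24, 8 of the 13 lay above 0.

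**Figure D5:**
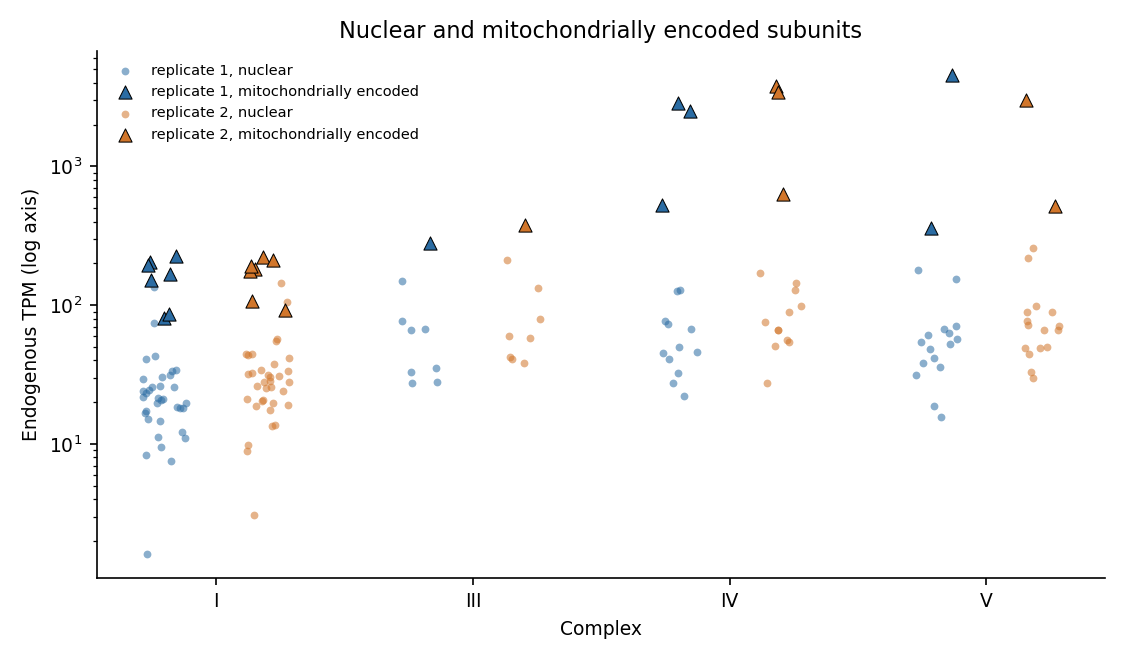
Endogenous TPM (log axis) of nuclear subunits (circles) and mitochondrially encoded subunits (triangles) of complexes I, III, IV and V in both libraries, without isoforms of other tissues and Atp5s. The triangles of complex IV (mt-Co1, 2883 and 3778 TPM) lie farthest above the circles apart from mt-Atp8 in complex V (4581 and 3028 TPM).

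The median level of the factors that assemble the complexes stood below that of the subunits. Single genes overlapped, as Uqcc2, given below, exceeded the complex I subunit Ndufs4 (7.57 and 8.95 TPM) in both libraries. Of 54 assembly factors, 46 were detected, with medians over all 54 of 2.10 TPM in replicate 1 and 2.75 in replicate 2. The highest by mean were Uqcc2, for complex III (14.8 and 17.3 TPM), Sco2, a copper carrier for complex IV (14.1 and 15.7), and Lrpprc, which stabilises mitochondrial messenger RNAs (11.3 and 15.2), level with Cox16 (11.6 and 14.8). No assembly factor reached the median of the detected subunits. Of 8 electron carriers and ubiquinone-linked enzymes, 6 were detected, led by Etfb (46.1 and 52.6 TPM), which feeds electrons from fatty acid oxidation into the chain, and Sqor (41.3 and 49.8), which oxidises sulfide. Cycs, somatic cytochrome c, had 5.75 and 5.45 TPM, and Cyct, the testis form, was listed at 0 in both libraries. Of 13 genes of ubiquinone synthesis, 10 were detected, Coq8a (15.0 and 29.6 TPM) and Coq9 (16.2 and 27.7) being highest. Among 15 regulators of these genes 8 were detected, with Gabpa at 3.98 and 4.85 TPM, Yy1 at 2.68 and 4.45 and Esrra at 2.83 and 4.01, whereas the coactivator Ppargc1a stood at 0.592 and 0.984 TPM.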

How the data were processed

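The members, gene lists and comparisons were chosen with earlier results of these data known. Each library was quantified by the authors on assembly mm10 with GENCODE M4 models, transfer RNA models and spike-ins, per the labels. The aligner is not given in the sources used here, nor is the quantifier. The deposited expected counts divide reads that match several features among them, per the file headers. The deposited TPM and FPKM are scaled to gene length by the authors, per the file headers. The deposited isoform percent is a transcript's share of its gene's TPM, per the file headers.

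From these, TPM was rescaled to endogenous genes, and rounded expected counts were scaled by TMM (edgeR 4.0.16, R 4.3.3) with a pseudocount of 0.5 CPM. DESeq2 1.42.0 size factors, the spike-in total and the deposited TPM were alternatives. The log2 ratio was tested on simulated data. With 1 group of 2 libraries no test between groups was possible. Measured genes had a mean of at least 1 TPM and 10 counts. Names and coordinates came from GENCODE M21 (42462 of 43346 genes matched, same assembly), and promoters from RefSeq GRCm38.p6. Pseudogene copies were matched with blastn 2.17.0, sequences aligned with Biopython 1.88, and tables and figures made with Python 3.11.15, pandas 2.3.3 and matplotlib 3.10.9. Library totals were 83816492 and 71068181 counts, and exact binomial 95% intervals cover counting error only.

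Named members were the 3 highest and 3 lowest by mean TPM in each complex, the isoform sets, the catalytic core subunits (1 is not reported here), the 5 largest log2 ratios in each direction, and members whose leading transcript was not coding or differed between libraries. The descriptions of GC content, neighbouring genes, pseudogene copies, Atp5h and the codons of the c-ring genes, the 1.5-fold count, the mitochondrial ratio without mt-Atp8, the newer Ndufa11 length and the sum of Ndufb4 and its copy were chosen after seeing the data.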

Additional observations from a re-analysis of the deposited data

Results flagged for a closer look

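Processed pseudogenes outside the members were searched for copies of them, and 19 copies had more than 3 expected counts, the limit that a count of 0 allows, in both libraries. There were 88 copies with a member as best match, of which 58 had no counts in either library. Counts on copies were 0.622% of the counts on members and copies in replicate 1 and 0.573% in replicate 2. The copy with the most counts was Ndufb4c, identical to part of Ndufb4, with 2696 in replicate 1 and 2113 in replicate 2. Gm10221, a copy of the complex V gene Atp5l, had 440 and 335 counts and was 100% identical to it over 309 bases. Gm12338, a copy of the complex IV gene Cox7c, had 397 and 573 counts and was 100% identical over 192 bases. Its level was 253 and 387 TPM, above Cox7c at 128 and 145. Copies held 2.99% and 5.62% of the counts on Cox7c and its copies. Gm15920, a copy of the complex I gene Ndufa12, had 112 and 140 counts. Whether these counts come from the copies or from the parent genes was not tested. Reads from an identical stretch cannot be assigned by sequence, so a count of 0 on an identical copy is uncertain too.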

How the results depend on the processing

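No paired analysis was possible because the series has only 1 group. With a single library left, each value falls within the SD by construction, so this says nothing about stability, and 75 to 76 members were then detected. Other thresholds gave 70 to 77 detected members. The members' share, 2.69% of protein-coding TPM, was 0.385% of all endogenous TPM, 1.14% of protein-coding counts and 2.96% of protein-coding TPM without mitochondrially encoded genes. In CPM, which is not scaled to length, the medians were 36.2 for complex I, 173 for complex II, 107 for complex III, 64.7 for complex IV and 80.3 for complex V. The complex IV median was 59.6 TPM over detected members, without isoforms of other tissues, and without these and Atp5s. By counts, the share of isoforms of other tissues was 0.571% in the COX7A set, 0.104% in COX8 and 0.0585% in NDUFA4. The ratio of mitochondrial to nuclear subunits by summed TPM was 1.12, 0.576 and 7.84 for complexes I, III and IV. For complex V it was 3.79, which rests on mt-Atp8. By counts the ratio of medians was 9.36, 62.6 and 4.87 for complexes III, IV and V. With all members the ratio of median TPM was 74.8 for complex IV, and without mt-Atp8 7.17 for complex V. The members' median log2 ratio reversed to 0.19 with the spike-in total and to 0.46 with deposited TPM, with which 1 member, Atp5d, was over 2-fold apart. The share of the leading transcript was 97.4% among genes of 10 TPM or more. The causes of these shifts were not tested. With 2 libraries that may share a donor, no difference between them has a replicate check, and isoforms at a few counts are limited by depth.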
